A study of Homo sapiens with 5 samples.

Results

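The genes described here encode the kinetochore, the centromere, the chromosomal passenger complex and the spindle assembly checkpoint. Members are the genes whose symbol is on a list of 48 for these complexes. Of the 48, 47 had a row among the 25382 genes of the count table, and all 47 had enough reads to be tested among 13297 genes. The remaining symbol, MLF1IP, has no row of that name. RefSeq lists it as an older name of CENPU, and the CENPU row is given beside the inner kinetochore without being counted. Reads per member and library ran from 241 to 13020.

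Expression was measured by RNA sequencing in MDA-MB231 cells, an established line derived from a metastatic breast carcinoma of a human patient that lacks the estrogen and progesterone receptors. Shear stress was used to separate the cells into a weakly adherent population, with 3 libraries dated 6, 12 and 15 March, and a strongly adherent one, with 2 libraries dated 6 and 15 March. All 5 came from the same line grown in DMEM with serum, and no drug or genetic change is named for either group. Separate cultures are not mentioned in the labels, and p-values therefore reflect only how these samples spread, which may be technical. The shear itself and a difference already there beforehand cannot be told apart.

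Libraries held 19630386 to 21707459 reads assigned to genes. Among identity genes of the line, VIM lay at 2458 to 2746 CPM (the usual rate of reads per library total, scaled by the trimmed mean of M values and not divided by gene length, so not comparable between genes) and CDH1 at 1.18 to 2.07 CPM, while ESR1 and PGR had 0 reads, which allows up to 0.153 CPM in the smallest library. Markers of other cell types included CD3E, DCN and INS, with 0 reads in every library. The summed level of the whole marker list was 192 to 199 CPM in the strongly and 209 to 222 CPM in the weakly adherent libraries, of which MBP alone supplied 179 to 203 CPM and all others together 13.0 to 18.8 CPM. What part such cells have in the results was not tested.

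The kinetochore is the protein plate on each centromere to which spindle microtubules attach. Its inner layer rests on nucleosomes that carry the histone H3 variant CENP-A, its outer layer binds microtubules, and unattached kinetochores recruit checkpoint proteins that hold back the anaphase-promoting complex until every chromosome is attached. Many of these genes are transcribed mainly in G2 and mitosis, when the proteins are needed, while others are expressed through the whole cell cycle. In bulk RNA, more cells in G2 or mitosis and more RNA per cell cannot be told apart.

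Weakly adherent cells had more RNA of 5 of the 47 genes: the kinetochore motor CENPE, the corona protein CENPF, the outer kinetochore scaffold CASC5, the centromeric histone CENPA and its chaperone HJURP. None of the 47 was called lower (edgeR's quasi-likelihood test, Benjamini-Hochberg adjusted p under 0.05 over all tested genes). Among all 13297 genes 1.77% were called higher and 0.918% lower. The log2 fold change, weakly minus strongly adherent throughout, ran from -0.33 for DSN1 to 1.37 for CENPE. It was positive in 33 members and negative in 14, with a median of 0.09, against 49.8% positive and a median of -0.00 over all tested genes. At an unadjusted p under 0.05 there were 19 of the 47 members, beside 1889 of all 13297 tested genes.

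For 19 members there was no overlap between weakly and strongly adherent libraries. In 16 the 3 weakly adherent libraries lay above both strongly adherent ones, where 15.5% of all tested genes do so, and in 3 they lay below, where 14.5% of all tested genes do so. The count of calls depended on the dates. With the shared date as a block, a fit that compares libraries of 1 day and leaves 1 residual degree of freedom, so that its small p-values rest largely on the spread pooled over genes, 15 members were called higher and 3 lower (DSN1, ZWINT and CENPQ), beside 6.20% and 5.28% of all tested genes. The 10 added calls were CENPL, NDC80, NUF2, BUB1, BUB1B, TTK, CDCA8, INCENP, BIRC5 and SGOL2.

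**Figure D1:**
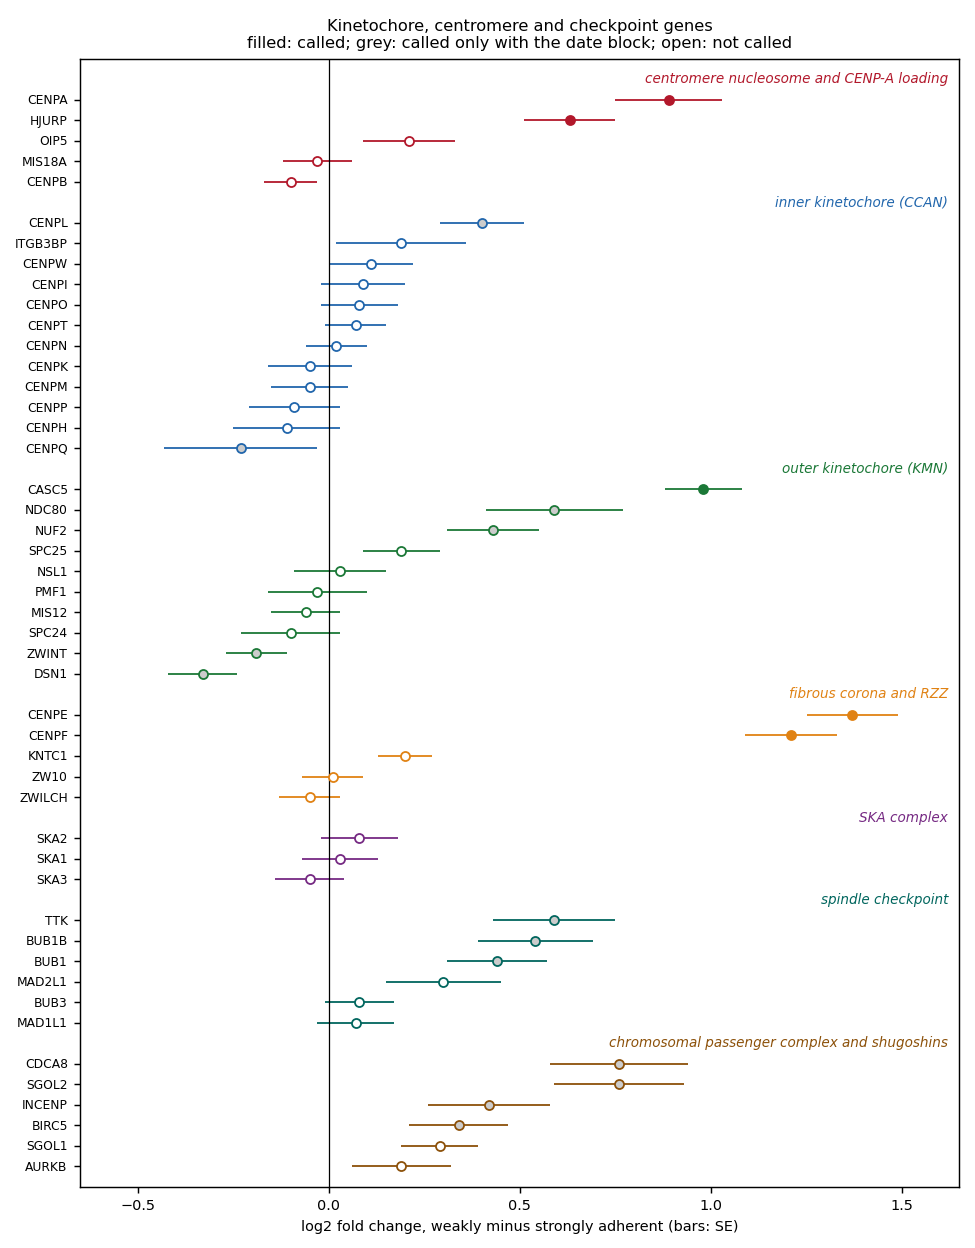
Log2 fold change (horizontal axis, weakly minus strongly adherent) of each of the 47 genes, grouped by role, with standard errors as bars. Filled points are the 5 genes called by edgeR, grey points those called only with the date block, and open points the rest. The called genes sit between 0.63 and 1.37, and the inner kinetochore and SKA genes gather around 0.

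The share of reads on the set as a whole was also higher in weakly adherent cells, and genes with many reads weigh most in it. The 47 genes took 0.365% and 0.357% of gene counts in strongly adherent cells (6 and 15 March), and 0.473%, 0.505% and 0.41% in weakly adherent cells (6, 12 and 15 March), the order kept for all values per library. The weakly adherent library of 15 March was thus the nearest to the strongly adherent ones, and the groups did not overlap. Without CENPE and CENPF the shares were 0.333% and 0.327% against 0.395%, 0.426% and 0.348%. By role, the corona and RZZ genes went from 0.0559% ± 0.0013 (SD, n = 2) to 0.0994% ± 0.00968 (SD, n = 3), and the inner kinetochore from 0.0484% ± 0.000424 to 0.0501% ± 0.00332.

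**Figure D2:**
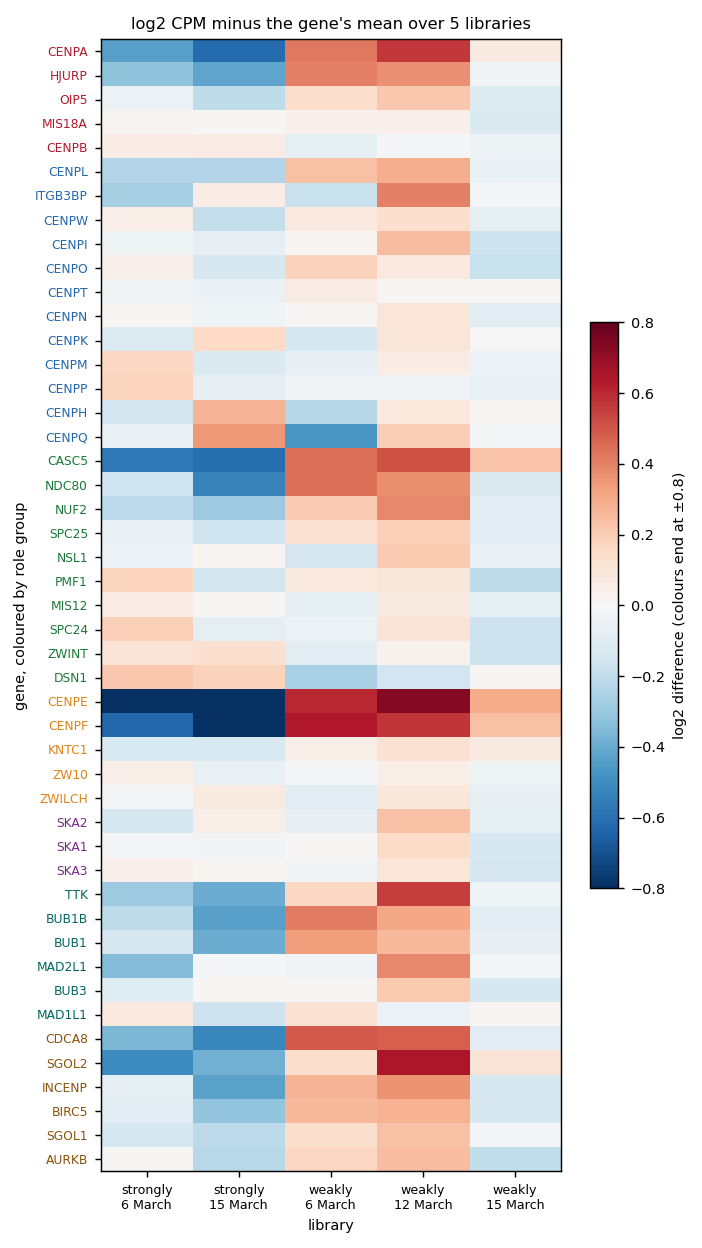
Log2 CPM of each of the 47 genes (rows, coloured by role) in each of the 5 libraries (columns), minus the gene's mean over the libraries; red is above and blue below that mean, and colours end at ±0.8. The weakly adherent library of 15 March is paler than those of 6 and 12 March for the genes called higher.

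Promoters are shown because many G2 and mitosis genes share a cell cycle genes homology region (CHR), which the MuvB complexes bind near the start site, and CCAAT boxes, bound by NF-Y. RefSeq windows on GRCh38.p14, from 250 bases before to 50 bases after the start site, were found for 38 of the 47 genes; MIS18A, CENPH, CENPL, CENPM, CASC5, KNTC1, BUB3, TTK and BIRC5 had none. The windows below show the bases just before the start site for the 4 called genes that have a window and for CDCA8 and BUB1B, which have the largest fold changes among the passenger and checkpoint genes with CHR letters. That of HJURP is longer because its CHR letters lie farther out. Capitals mark the CHR letters (TTTGAA or TTCGAA on either strand) and the CCAAT letters (CCAAT on either strand, so ATTGG as printed when on the other strand); in CDCA8 the motifs overlap.
CENPA (chr2:26785956-26786055, plus strand): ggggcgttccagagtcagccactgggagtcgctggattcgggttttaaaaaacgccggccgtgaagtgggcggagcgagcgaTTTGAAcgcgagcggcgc
HJURP (chr2:233854536-233854665, minus strand): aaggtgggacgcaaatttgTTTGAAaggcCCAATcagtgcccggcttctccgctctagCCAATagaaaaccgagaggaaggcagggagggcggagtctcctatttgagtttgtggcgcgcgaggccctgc
CENPE (chr4:103198344-103198443, minus strand): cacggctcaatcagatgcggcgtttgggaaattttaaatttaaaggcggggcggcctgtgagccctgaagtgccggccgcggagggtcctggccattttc
CENPF (chr1:214603095-214603194, plus strand): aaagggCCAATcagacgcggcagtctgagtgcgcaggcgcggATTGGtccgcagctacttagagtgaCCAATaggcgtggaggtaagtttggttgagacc
CDCA8 (chr1:37692416-37692515, plus strand): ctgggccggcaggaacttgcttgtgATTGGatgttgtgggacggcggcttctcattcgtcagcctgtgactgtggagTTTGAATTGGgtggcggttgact
BUB1B (chr15:40160969-40161068, plus strand): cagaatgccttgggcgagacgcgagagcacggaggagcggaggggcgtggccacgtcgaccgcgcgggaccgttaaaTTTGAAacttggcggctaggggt

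CHR letters were present in 20 of the 38 genes with a window (52.6%), against 19.5% of 27305 RefSeq symbols and 15.4% of the 9725 tested genes found there. Within 50 bases of the start site, a window chosen after the positions were seen, they were present in 18 of 38 (47.4%) against 4.99% of those tested genes; the other 2 were HJURP and ZW10. In CENPA they begin 18 bases before the start, in CDCA8 and BUB1B 23 bases before, and in CENPF 41 bases after, outside the stretch printed. CENPE, with the largest fold change, has neither motif in its window. The median log2 fold change was 0.30 in the 20 genes with CHR letters, 18 of them positive, and -0.00 in the 18 without, 9 of them positive, where all tested genes had 0.03 with and -0.00 without. The libraries of the weakly adherent cells all lay higher in 9 of the 20 and in 3 of the 18, the latter near the 15.5% of all tested genes. CCAAT letters were present in 24 of 38 (63.2%), against 43.2% of the tested genes. These are matches of letters, and the difference between genes with and without them was not tested.

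At the centromere, the genes of CENP-A and its chaperone rose and those of the licensing factors did not pass. CENPA, the histone H3 variant that marks centromeric chromatin, lay at 25.4 and 22.4 CPM in strongly and at 46.0, 50.8 and 36.2 CPM in weakly adherent libraries. The groups were well apart, with the 15 March library lowest in each. Its mean went from 23.9 ± 2.13 (SD, n = 2) to 44.3 ± 7.42 CPM (SD, n = 3). The log2 fold change was 0.89 (SE 0.14), 1.85-fold, at an edgeR adjusted p of 0.0089, which became 0.077 without the strongly adherent library of 15 March.

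HJURP, the chaperone that deposits CENP-A after mitosis, lay at 117 and 109 CPM in strongly and at 193, 188 and 144 CPM in weakly adherent libraries. It did not overlap between groups either, and the weakly adherent library of 15 March stood apart from the other 2. The log2 fold change was 0.63 (SE 0.12), 1.54-fold, at an edgeR adjusted p of 0.036. The adjusted p rose above the threshold when a single library was left out: strongly adherent of 6 March (0.15) or 15 March (0.19), or weakly adherent of 12 March (0.093).

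OIP5 and MIS18A, subunits of the Mis18 complex that licenses CENP-A loading, and CENPB, which binds a motif of alpha-satellite DNA, did not pass. OIP5 had 15.8 ± 1.21 against 18.3 ± 2.04 CPM (0.21, SE 0.12) and MIS18A 28.7 ± 0.121 against 28.2 ± 1.70 CPM (-0.03, SE 0.09). CENPB was a little lower in all 3 weakly adherent libraries, at 124, 130 and 127 CPM against 136 and 137 CPM, or -0.10 on the log2 scale (SE 0.07, edgeR adjusted p = 0.59).

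The inner kinetochore, the constitutive centromere-associated network that stays on centromeres through the cell cycle, was nearly level between the groups. None of its 12 genes was called, the median log2 fold change was 0.04, and 7 were positive. CENPL, which with CENPN recognises the CENP-A nucleosome, was the highest. It lay at 36.0 and 35.9 CPM in strongly and at 49.7, 51.7 and 40.7 CPM in weakly adherent libraries, so that the groups did not overlap. Its log2 fold change was 0.40 (SE 0.11, edgeR adjusted p = 0.078), with an adjusted p of 0.0013 with the date block. Its partner CENPN had 96.6 ± 2.46 against 97.7 ± 6.44 CPM (0.02, SE 0.08).

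CENPQ, a subunit of the CENP-O group, was the lowest. Its values were 24.5 and 32.5 CPM in strongly and 18.5, 29.2 and 25.2 CPM in weakly adherent libraries, which overlap. Within each shared date the weakly adherent library was the lower one, by -0.40 on the log2 scale on 6 March and -0.36 on 15 March. The fit without the dates gave -0.23 (SE 0.20, edgeR adjusted p = 0.73) and the fit with the date block -0.38 (adjusted p = 0.0011). CENPU, of the same group and outside the count, had -0.14 (SE 0.10, adjusted p = 0.59), or -0.25 with the date block (adjusted p = 0.0042), and was lower on both dates as well (-0.27 and -0.23).

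The other 9 inner genes lay between -0.11 and 0.19. Those of the CENP-H/I/K/M group had log2 fold changes of -0.11 (CENPH), 0.09 (CENPI), -0.05 (CENPK) and -0.05 (CENPM). CENPT and CENPW, whose histone folds pair and link the inner to the outer kinetochore, had 0.07 and 0.11. CENPT did not overlap between groups (43.8 and 42.9 CPM against 46.7, 44.8 and 44.9 CPM), a difference within its standard error of 0.08. CENPO, CENPP and ITGB3BP, which encodes CENP-R, had 0.08, -0.09 and 0.19. None of these 9 was called with the date block.

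The outer kinetochore, the KMN network that grips microtubules, was split by gene. Of 10 genes 1 rose, none fell, 5 were positive, and the median log2 fold change was -0.00. CASC5, the KNL1 scaffold on which BUB proteins assemble, lay at 39.7 and 39.0 CPM in strongly and at 80.2, 84.0 and 69.3 CPM in weakly adherent libraries. The strongly adherent libraries were nearly equal and every weakly adherent one was far above them. The log2 fold change was 0.98 (SE 0.10), 1.98-fold, at an edgeR adjusted p of 0.00019, and it stayed at 0.0017 or below whichever library was left out.

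NDC80 and NUF2, the pair whose heads bind the microtubule, had log2 fold changes of 0.59 (SE 0.18) and 0.43 (SE 0.12). NDC80 lay at 90.3 and 69.8 CPM in strongly and at 137, 131 and 93.1 CPM in weakly adherent libraries, so the nearest libraries of the groups were close. NUF2 lay at 63.2 and 59.7 CPM against 84.1, 95.3 and 68.7 CPM. Neither passed (edgeR adjusted p = 0.19 and 0.13), and both did with the date block (9.8e-12 and 0.0004). SPC25 and SPC24, the pair at the other end of the same complex, had 0.19 (SE 0.10) and -0.10 (SE 0.13).

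DSN1, a subunit of the MIS12 complex that joins the inner to the outer layer, was lower. Its values were 87.3 and 85.2 CPM in strongly and 62.7, 67.5 and 75.6 CPM in weakly adherent libraries, without overlap. The log2 fold change was -0.33 (SE 0.09, edgeR adjusted p = 0.073), with an adjusted p of 0.00013 with the date block. The other subunits of that complex, MIS12, NSL1 and PMF1, had -0.06, 0.03 and -0.03. ZWINT, which binds the KNL1 scaffold and helps to recruit the RZZ complex, was lower in all weakly adherent libraries (216 and 220 CPM against 189, 205 and 179 CPM), at -0.19 (SE 0.08, edgeR adjusted p = 0.26, or 0.0029 with the date block).

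The fibrous corona, the outermost layer of unattached kinetochores, held the largest increases. CENPE, the kinesin that carries chromosomes toward the spindle equator, lay at 67.6 and 68.2 CPM in strongly and at 182, 199 and 147 CPM in weakly adherent libraries. Even the lowest weakly adherent library was far above the strongly adherent ones, which were almost equal. The log2 fold change was 1.37 (SE 0.12, edgeR adjusted p = 0.00053), and the adjusted p was at most 0.009 with 1 library left out. CENPF, a large coiled-coil protein of the corona and a common marker of G2 cells, lay at 256 and 225 CPM in strongly and at 619, 589 and 466 CPM in weakly adherent libraries. Its log2 fold change was 1.21 (SE 0.12, edgeR adjusted p = 0.0014), at most 0.006 with 1 library left out.

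The 3 subunits of the RZZ complex, which brings dynein and the MAD proteins to the corona, did not pass. KNTC1, the ROD subunit, was higher in all weakly adherent libraries, at 109, 115 and 111 CPM against 96.9 and 97.0 CPM (0.20, SE 0.07, edgeR adjusted p = 0.18). ZW10 had 86.5 ± 4.69 against 86.9 ± 2.78 CPM (0.01, SE 0.08) and ZWILCH 66.8 ± 2.53 against 64.5 ± 4.46 CPM (-0.05, SE 0.08). The SKA complex, which helps NDC80 to hold on to shrinking microtubules, was level too, at 0.03 (SKA1, SE 0.10), 0.08 (SKA2, SE 0.10) and -0.05 (SKA3, SE 0.09). SKA2 lay at 114 and 130 CPM in strongly and 120, 148 and 119 CPM in weakly adherent libraries, and SKA3 at 63.3 and 62.4 CPM against 60.5, 65.8 and 56.0 CPM. Both overlap between the groups.

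**Figure D3:**
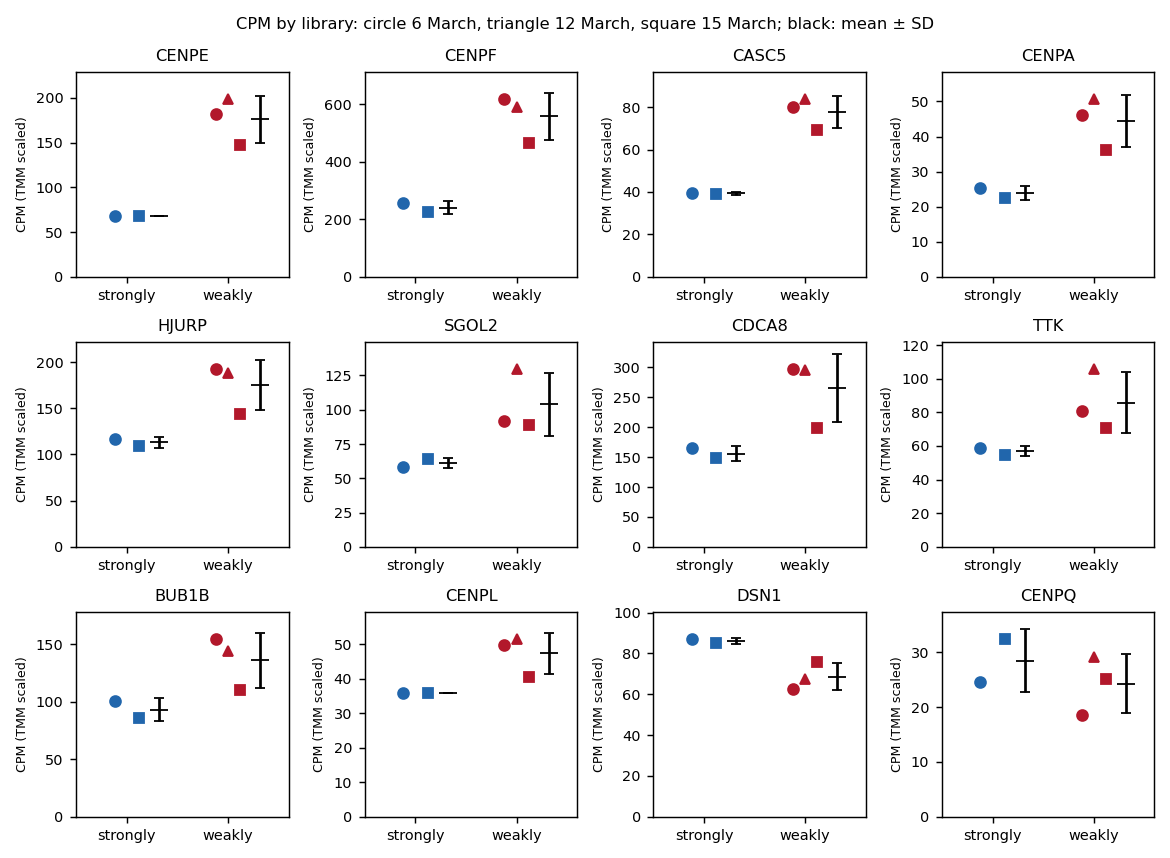
CPM per library (vertical axis, from 0) of 12 genes in strongly (blue) and weakly adherent (red) libraries; the symbol gives the date and the black bar the mean ± SD (n = 2 and n = 3). CENPE, CENPF, CASC5, CENPA and HJURP are the called genes; the square of 15 March is the lowest weakly adherent value for each of them.

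All 6 spindle checkpoint genes were positive, with a median log2 fold change of 0.37, and none was called. The kinase TTK, also known as MPS1, which starts checkpoint signalling, lay at 59.0 and 54.8 CPM in strongly and at 81.0, 105.7 and 70.5 CPM in weakly adherent libraries (0.59, SE 0.16, edgeR adjusted p = 0.14). BUB1B, which encodes the BUBR1 subunit of the mitotic checkpoint complex, lay at 100.5 and 86.1 CPM against 155, 144 and 110 CPM (0.54, SE 0.15, edgeR adjusted p = 0.14). The kinase BUB1 lay at 262 and 218 CPM against 362, 343 and 274 CPM (0.44, SE 0.13, edgeR adjusted p = 0.15). None of these 3 overlapped between groups, although for BUB1 and BUB1B the weakly adherent library of 15 March came close to the strongly adherent one of 6 March, and with the date block each was called (6.2e-07, 5.8e-11 and 4.2e-08).

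MAD2L1, the protein that unattached kinetochores convert into the inhibitor of CDC20, had 92.2 ± 15.5 against 113 ± 18.7 CPM (0.30, SE 0.15), with overlapping libraries. Its partner MAD1L1 and the BUB1-binding protein BUB3 were nearly level, at 0.07 (SE 0.10) and 0.08 (SE 0.09).

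The chromosomal passenger complex, which corrects wrong attachments, and the shugoshins, which protect centromeric cohesion, were all positive as well (6 of 6, median 0.38), and none was called. CDCA8, the borealin subunit, lay at 165 and 148 CPM in strongly and at 298, 296 and 199 CPM in weakly adherent libraries (0.76, SE 0.18, edgeR adjusted p = 0.087). SGOL2 lay at 58.4 and 63.7 CPM against 91.7, 130 and 89.2 CPM (0.76, SE 0.17, edgeR adjusted p = 0.078). Neither overlapped between groups, and the date block called both (5.1e-20 and 1.9e-13). The fold changes of the rest were smaller.

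INCENP, the scaffold of the complex, and BIRC5, which encodes survivin, had 0.42 (SE 0.16) and 0.34 (SE 0.13). Both were called with the date block (5.9e-05 and 0.0014), although their libraries overlapped across dates. SGOL1 was higher in all weakly adherent libraries, at 36.1, 38.9 and 32.9 CPM against 30.0 and 28.6 CPM (0.29, SE 0.10, edgeR adjusted p = 0.16, or 0.059 with the date block). The kinase AURKB, the enzyme of the complex, had 118 ± 13.3 against 135 ± 21.0 CPM (0.19, SE 0.13, edgeR adjusted p = 0.65).

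Within each shared date there is 1 library per arm, so these differences carry no test. On 6 March 31 of the 47 genes were higher in the weakly adherent library, with a median log2 difference of 0.09. On 15 March 27 were, with a median of 0.03. Over all 13297 tested genes, 6481 were higher on 6 March (median -0.01) and 6933 on 15 March (median 0.01). The members were thus closer to all genes on 15 March than on 6 March. All 5 called genes were higher on both dates: CENPE by 1.42 and 1.11 on the log2 scale, CENPF by 1.27 and 1.05, CASC5 by 1.01 and 0.83, CENPA by 0.85 and 0.69, and HJURP by 0.72 and 0.39. The sign was the same on both dates in 37 of the 47 genes, beside 8357 of all 13297 tested genes. It differed in 10, none of which was beyond 0.2 on both. In 33 of 47 the difference was larger in size on 6 March, beside 7165 of all 13297 tested genes. CDCA8 (0.86 and 0.43), CENPL (0.46 and 0.18) and DSN1 (-0.48 and -0.17) were among the genes with the widest gap between the dates, and were picked here after their values were seen.

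**Figure D4:**
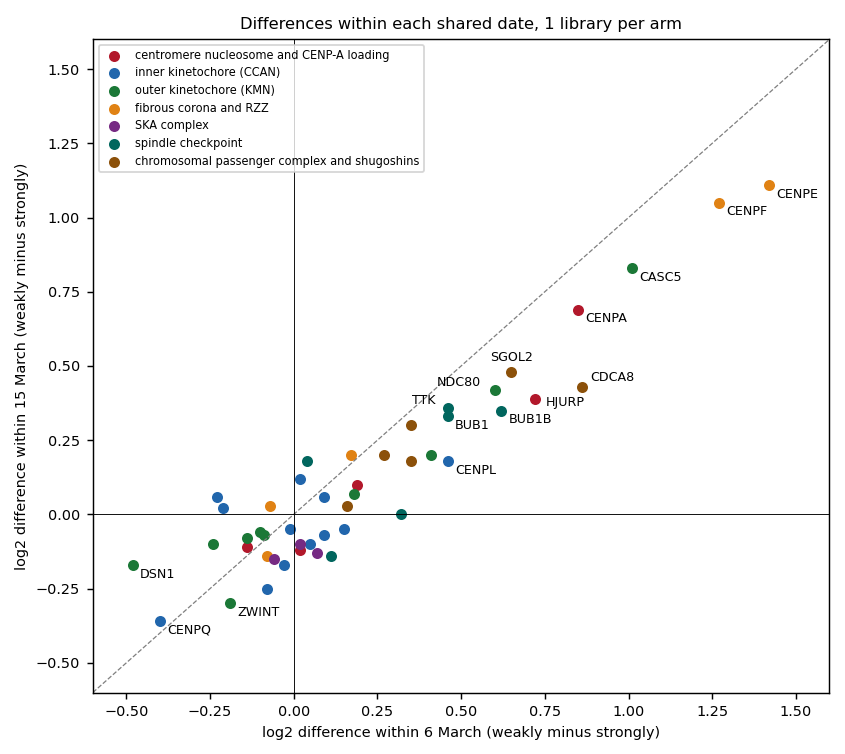
Log2 difference, weakly minus strongly adherent, within 6 March (horizontal) and within 15 March (vertical) for the 47 genes, coloured by role; the dashed line marks equal differences. CENPE, CENPF, CASC5 and CENPA lie at the upper right under the line, and CENPQ, DSN1 and ZWINT at the lower left.

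The weakly adherent library of 15 March was the lowest of the 3 weakly adherent ones in 34 of the 47 genes (72.3%), against 31.0% of all tested genes. The same library was lowest in 40 of 42 other G2/M genes. Without it, edgeR called 15 members higher, beside 1.79% of all genes tested in that fit, and all 15 were among the 15 of the date block; over the members the log2 fold change then had a median of 0.18, and 1 member, DSN1, was called lower. Leaving out the strongly adherent 15 March library instead left 3 calls, those of CENPE, CENPF and CASC5. The part of this library in the results was not tested beyond leaving it out.

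Coding length moved with the fold change over all tested genes, whose median was 0.30 for coding sequences over 6 kb and -0.01 under 1 kb. Among the members, CENPF (9342 bases), CENPE (8103), CASC5 (7026) and KNTC1 (6627) were over 6 kb, and 3 of these 4 were called, beside 33.1% of all tested genes of that length. CENPA has a coding sequence of 420 bases and HJURP one of 2244 bases; 0.328% of genes under 1 kb and 0.605% of those of 1 to 3 kb were called higher. With each library's trend with coding length removed, all 5 calls stood. The log2 fold changes were then 1.06 for CENPE (edgeR adjusted p = 0.0025), 0.83 for CENPF (0.03), 0.73 for CASC5 (0.00066), 0.89 for CENPA (0.0043) and 0.62 for HJURP (0.029). CENPL was called as well (0.43, adjusted p = 0.047), which makes 6 members, beside 0.955% of all tested genes, and KNTC1 went from 0.20 to -0.03.

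**Figure D5:**
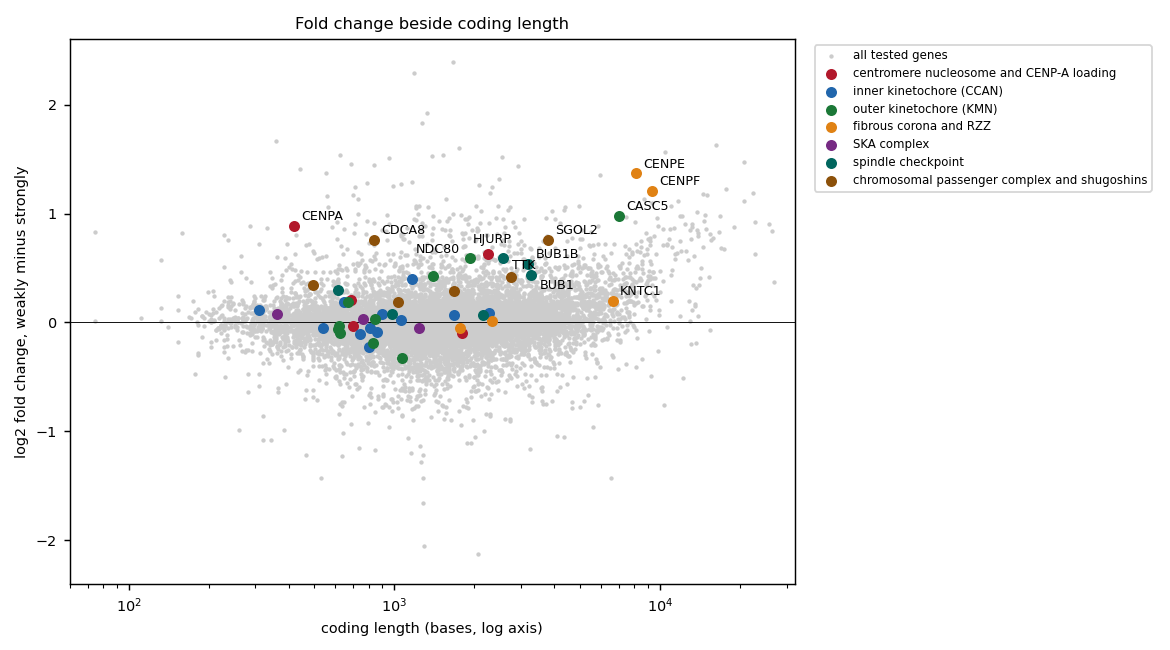
Log2 fold change (vertical) against coding length in bases (horizontal, log axis) for all tested genes with a known length (grey) and the 47 genes (coloured by role). CENPE, CENPF and CASC5 stand above most genes of their length, KNTC1 lies among them, and CENPA and CDCA8 are high although their coding sequences are short.

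Other genes of the pathway, from lists that overlap in a few genes, were read from the same fit. Of 31 further kinetochore and centromere genes, 1 rose, none fell and 21 were positive, with a median log2 fold change of 0.07. The gene that rose was KIF18A, the kinesin that damps chromosome movements (55.1 ± 1.59 against 93.0 ± 15.8 CPM, or 0.75 on the log2 scale, SE 0.13, edgeR adjusted p = 0.022). Its adjusted p was 0.14 without either strongly adherent library. The next by p was PPP2R5C, a PP2A subunit (0.34, SE 0.09, adjusted p = 0.074). With the date block 8 of the 31 were called higher. A further list held 21 genes of the anaphase-promoting complex, its coactivators, E2 enzymes and targets, which the checkpoint holds back. None was called and 13 were positive, with a median of 0.05. At an unadjusted p under 0.05 there were 8, beside 1889 of all 13297 tested genes. DESeq2 called 5 higher, with no share of all genes at hand, so this cannot be told from more calls over the whole table. Securin, PTTG1, and CDC27, a subunit of the complex, had 0.45 (SE 0.11, adjusted p = 0.068) and 0.34 (SE 0.09, adjusted p = 0.086). With the date block 7 were higher and 1 lower.

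Of 42 G2/M genes used for scoring the cell cycle and not among the members, 10 rose, none fell and 40 were positive, with a median of 0.45, or 31 higher with the date block. GAS2L3, a linker of actin and microtubules, had the smallest p (1.26, SE 0.14, edgeR adjusted p = 0.0009). MKI67, the proliferation antigen, was next (0.96, SE 0.12, edgeR adjusted p = 0.0021). With the coding length trend removed, 8 of the 42 were called higher. MKI67, with 9768 coding bases, then had 0.55 (edgeR adjusted p = 0.045), and GAS2L3 stayed at 1.26. Of 42 S phase genes 16 fell and none rose, all 42 were negative and the median was -0.28, with 35 lower under the date block; the helicase subunit MCM6 (-0.62, SE 0.07, adjusted p = 0.00076) and the glycosylase UNG (-0.53, SE 0.08, adjusted p = 0.0036) had the smallest p. Leaving out weakly adherent 6, 12 or 15 March gave, in that order, 10, 6 and 29 G2/M genes higher and 9, 7 and 10 S phase genes lower. Without the 15 March library 1.79% of all genes tested in that fit were called higher. No share is given for the other counts, so they cannot be told from fewer or more calls over the whole table. Leaving out a strongly adherent library leaves 1 in that group. Over all fits with 1 library left out, the median ran from 0.38 to 0.58 for the G2/M genes. For the S phase genes it ran from -0.33 to -0.27. Among the members, the checkpoint and passenger groups, at medians of 0.37 and 0.38, thus lay near the other G2/M genes, and the inner kinetochore and SKA genes, at 0.04 and 0.03, lay near 0. These medians were not tested against each other.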

How the data were processed

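Raw read counts by gene symbol and log2 values were deposited by the authors for 5 libraries. RNeasy columns, the TruSeq Stranded RNA chemistry and single-end reads of 50 bases were used, per the labels' protocols. Tools named in the submitters' processing notes are FastQC, cutadapt, STAR, HTSeq and DESeq2, with hg19 as the build. Which annotation and strand setting was used was not given in the sources used here. How reads at overlapping genes were assigned is therefore not known. The authors' log2 values equal log2(count / size factor + 1), as tested on the file (largest difference 0.0152 reads). The 5 HTSeq rows that name no gene stayed out; reads outside genes were 8.08% to 9.98% of assigned plus such reads.

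The test was that of edgeR 4.0.16 under R 4.3.3 (TMM, filterByExpr, robust quasi-likelihood F test, Benjamini-Hochberg adjusted p under 0.05 over 13297 genes, 3 residual degrees of freedom, biological coefficient of variation 7.91%) on the deposited counts. Standard errors follow from fold change and F. Within-date values use a prior count of 2. The fit was tested on simulated counts of independent libraries with no date effect and no length trend, so these were not covered. Alternatives used DESeq2 1.42.0 and limma 3.58.1. The coding length is the longest in GENCODE 29 by symbol (92.1% of tested genes), removed as a spline with 5 degrees of freedom. Promoters were searched by letters, and RefSeq coordinates are of another build than hg19.

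Libraries with the same date in their titles were taken as pairs. After subtraction of group means, their correlation over genes was 0.34 (6 March) and 0.20 (15 March). Pairs of different dates ran from -0.34 to 0.16. The highest of these, strongly adherent 15 March with weakly adherent 12 March, was near the value of the 15 March pair. With 2 strongly adherent libraries these values are not independent, and whether the dates mark true pairs was not tested. The 12 March library has no partner and does not bear on the block fit's comparison. Replicates differed by more than sampling noise (chi-square of 7.56 to 12.7 per degree of freedom).

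The members and lists were chosen with earlier results of these data known. The rule for full values named the called members, the 2 members of each role group with the smallest p, and the highest and lowest fold change; the rest are given so that every member is accounted for. From each further pathway list the 2 genes with the smallest p are named. Figures were drawn with matplotlib 3.10.9.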

Additional observations from a re-analysis of the deposited data

How the results depend on the processing

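Against the 5 members called higher and 0 lower, DESeq2's Wald test called 10 and 1, and edgeR without a filter 6 and 1. Both of these gave a p-value for 17958 genes. DESeq2 adjusts its p-values only over the genes kept by its default filter on mean count, whose number is not given here. The replicate block (the shared date) gave 15 and 3, beside 6.20% and 5.28% of all tested genes. The date as a random effect in limma-voom gave 15 and 2, and the coding length trend removed with the replicate block 15 and 3. Where this section gives no share of all genes, a larger count cannot be told from more calls over the whole table. Leaving out 1 library gave 3 to 15 higher and 0 to 1 lower, with a median log2 fold change of 0.07 to 0.18. DESeq2's size factors, limma-voom, the filter at 1 CPM and the deposited log2 values, also with a pseudocount of 5, kept all 5 calls and added none.

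For the 31 further kinetochore genes, with 1 higher, DESeq2 gave 3, no filter 2, the replicate block 8, the random effect 7 and the length trend removed with the block 6, and leaving out 1 library 0 to 4. For the anaphase-promoting complex list, with none, these were 5, 3, 7 (and 1 lower), 6 (and 1 lower), 6 (and 1 lower) and 0 to 6. For the other G2/M genes, with 10 higher, DESeq2 gave 21, the block 31, the random effect 25 and the block with the length trend removed 31, and leaving out 1 library 3 to 29, with a median of 0.38 to 0.58. For S phase genes, with 16 lower, these were 35 with the block, 32 with the random effect, 33 with both block and length, and 4 to 10 with 1 library left out. The share of counts on the members without the 10 most abundant genes was 0.381% in strongly and 0.488% in weakly adherent libraries, against 0.361% and 0.463% with them.

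The sign changed for 17 members, none of them called in the reported fit or in the fit where the sign changed. With the replicate block CENPI was -0.03, CENPN -0.03, NSL1 -0.08, ZW10 -0.02, SKA1 -0.04, SKA2 -0.03 and BUB3 -0.01. With the random effect CENPN, ZW10 and SKA1 were -0.01 and NSL1 -0.03. KNTC1 was -0.03 with the length trend removed. With the length trend removed and the replicate block CENPI and SKA2 were -0.03, NSL1 -0.04, KNTC1 -0.06, ZW10 -0.02 and SKA1 -0.01. With 1 library left out the ranges were -0.05 to 0.03 for MIS18A, -0.31 to 0.11 for CENPH, -0.02 to 0.19 for CENPI, -0.18 to 0.10 for CENPK and CENPM, -0.03 to 0.07 for CENPN, -0.21 to 0.03 for CENPP, -0.22 to 0.03 for SPC24, -0.08 to 0.10 for NSL1, -0.18 to 0.13 for PMF1, -0.04 to 0.06 for ZW10, -0.04 to 0.10 for SKA1, -0.04 to 0.18 for SKA2, -0.11 to 0.01 for SKA3, -0.01 to 0.16 for BUB3 and -0.04 to 0.19 for MAD1L1. The cause of these changes was not tested.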
